A study of Mus musculus with 5 samples.

Results

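The immediate early genes Fos, Fosb, Jun, Junb, Jund, Egr1, Ier2, Atf3, Klf4 and Klf6 were followed in RNA sequencing libraries of mouse lenses at embryonic day 14. They were chosen by gene symbol from the deposited table of raw counts. Of these 10 symbols, 8 have a row among the 12370 symbols of the table and all 8 passed the filter on low counts, while Fosb and Atf3 have none and were not analysed here. The 2 knockout libraries came from embryos with loxP-flanked N-myc alleles and 1 copy of Mlr10-Cre, a transgene in which a lens crystallin promoter drives the Cre recombinase. The 3 control libraries came from embryos without Cre that carried the same loxP-flanked N-myc alleles. The labels describe controls with and without loxP-flanked c-myc, and the sources used here do not say which kind each control library was. Each library was made from a pool of lysates, and how many animals went into a pool is unstated. Cre was present in each knockout library and absent from each control, so effects of the transgene and of the deletion cannot be told apart.

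Immediate early genes are transcribed within minutes of a stimulus because their activators, such as serum response factor with its ETS-family partners and CREB, are already present in the resting cell and are switched on by MAP kinases. FOS and JUN proteins pair through leucine zippers into the dimeric factor AP-1, EGR1 and the KLF proteins bind GC-rich DNA through zinc fingers, and ATF3 and IER2 are stress and growth-factor responsive regulators. In the lens, growth factor signalling through the MAP kinase ERK drives proliferation of epithelial cells and differentiation of fibre cells. The same genes are also known to be induced by the handling of tissue.

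Every library held between 13162384 and 13746416 counts. Lens identity was checked with 12 lens genes, which summed to 68700 and 79160 CPM (counts per 1000000 counts of the scaled library) in the knockouts and to between 72920 and 87440 CPM in the controls (0 called higher and 4 lower). Mycn, the targeted gene, had raw counts of 801 and 1141 in the knockouts, against 2066, 1955 and 1848 in the controls (log2 -1.11, SE 0.15, edgeR adjusted p = 0.0097). The labels do not say where the loxP sites lie, so the count may include exons outside the deleted part. Genes were called at an adjusted p under 0.05. Of the 12035 genes tested, 960 were called higher and 1024 lower in the knockouts (16.5% called, 48.4% of them higher). Scaling by library totals alone made that share 70.3%, with the median log2 fold change of all genes at 0.087. Fitting and removing the dependence of each library's values on transcript length and GC content made it 37.9%.

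Promoter sequences are shown for 4 members: Fos, called higher by edgeR but not by DESeq2 or limma-voom, and Junb, Jun and Klf6, which did not pass the test. Egr1 and Jund, which edgeR, DESeq2 and limma-voom all called higher, are not shown. Egr1 had no window, and the window of Jund held none of the motifs searched. Any relation between these motifs and the members' changes was not tested. RefSeq (GRCm38.p6) windows were at hand for 8 of the 10 symbols, all but Egr1 and Ier2, and the 250 bases before each gene start were searched on both strands. Capitals mark TGACG, the core of the cAMP response element (CGTCA when read on the other strand), or TGACATCA, the AP-1-like element known from the Jun promoter.
Fos (chr12:85473640-85473889, plus strand): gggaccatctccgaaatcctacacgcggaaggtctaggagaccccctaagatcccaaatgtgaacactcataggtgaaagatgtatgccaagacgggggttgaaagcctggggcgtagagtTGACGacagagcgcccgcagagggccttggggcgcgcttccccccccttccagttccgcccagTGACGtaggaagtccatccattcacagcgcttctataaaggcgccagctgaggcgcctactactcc
Junb (chr8:84978749-84978998, minus strand): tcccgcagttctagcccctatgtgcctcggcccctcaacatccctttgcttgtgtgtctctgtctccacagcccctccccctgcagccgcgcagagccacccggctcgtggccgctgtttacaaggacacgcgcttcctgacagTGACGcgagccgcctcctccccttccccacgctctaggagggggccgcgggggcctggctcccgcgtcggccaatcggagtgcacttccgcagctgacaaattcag
Jun (chr4:95052223-95052472, minus strand): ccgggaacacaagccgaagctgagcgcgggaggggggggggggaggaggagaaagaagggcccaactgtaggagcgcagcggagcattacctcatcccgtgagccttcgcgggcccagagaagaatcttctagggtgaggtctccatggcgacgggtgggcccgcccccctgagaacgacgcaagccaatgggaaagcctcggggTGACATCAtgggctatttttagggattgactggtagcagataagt
Klf6 (chr13:5861239-5861488, plus strand): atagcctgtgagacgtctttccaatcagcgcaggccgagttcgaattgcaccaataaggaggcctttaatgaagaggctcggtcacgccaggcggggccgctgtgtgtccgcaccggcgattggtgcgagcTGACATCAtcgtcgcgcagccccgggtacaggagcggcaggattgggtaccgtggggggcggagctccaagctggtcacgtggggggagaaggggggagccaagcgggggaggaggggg
TGACG was present in 5 of the 8 windows, those of Fos, Fosb, Junb, Atf3 and Klf4, and in 27% of the 11961 windows of tested genes. Fosb and Atf3 have no row in the count table and so are not among the tested genes. In Fos, TGACG occurred at 129 to 125 and at 66 to 62 bases before the gene start, and the TATA element TATAAA stood at 33 to 28 bases. TGACATCA was present in the windows of Jun and Klf6 and in 1.51% of those of tested genes. CACGTG, the E-box bound by MYC and MAX dimers, was present in the windows of Klf4 and Klf6 and in 8.39% of those of tested genes. The CArG box bound by serum response factor was in 0 of the 8 windows and in 1.18% of those of tested genes, and the serum response element of Fos is known from further upstream than this window. The RefSeq start of Jund lies 1210 bases before its GENCODE start, and its window held none of these motifs. For Atf3 the RefSeq start lies inside the GENCODE gene, well after the GENCODE start.

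Of the 8 measured members, 3 rose in the knockout lenses: Fos (2.00-fold), Egr1 (1.73-fold) and Jund (1.63-fold). DESeq2 and limma-voom called Egr1 and Jund but not Fos. The 5 remaining members did not pass the test, with log2 fold changes between -0.24 (Klf6) and 0.67 (Klf4), and 0 members fell with edgeR, DESeq2 or limma-voom. At an unadjusted p under 0.05, edgeR also had 0 members lower. Of all genes tested, 7.98% were called higher and 8.51% lower. The median log2 fold change was 0.62 over the 8 members and 0.00 over all genes tested. The knockout and control libraries did not overlap for Fos, Jund, Egr1 and Ier2, which were higher in the knockouts, and for Klf6, which was lower, as was the case, in either direction, for 52.5% of all tested genes. Without knockout replicate 1 or control replicate 2, 0 of the 8 members passed edgeR's threshold (3 had an unadjusted p under 0.05 in each case, and 4 with all libraries, as did 35.8% of all tested genes), without control replicate 3 only Jund did, and without knockout replicate 2, 4 did. Those exclusions changed the calls over all genes as well, to 292 without knockout replicate 1, 38 without control replicate 2, 237 without control replicate 3 and 2717 without knockout replicate 2. With the length and GC trends removed, 0 passed (3 with an unadjusted p under 0.05).

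**Figure D1:**
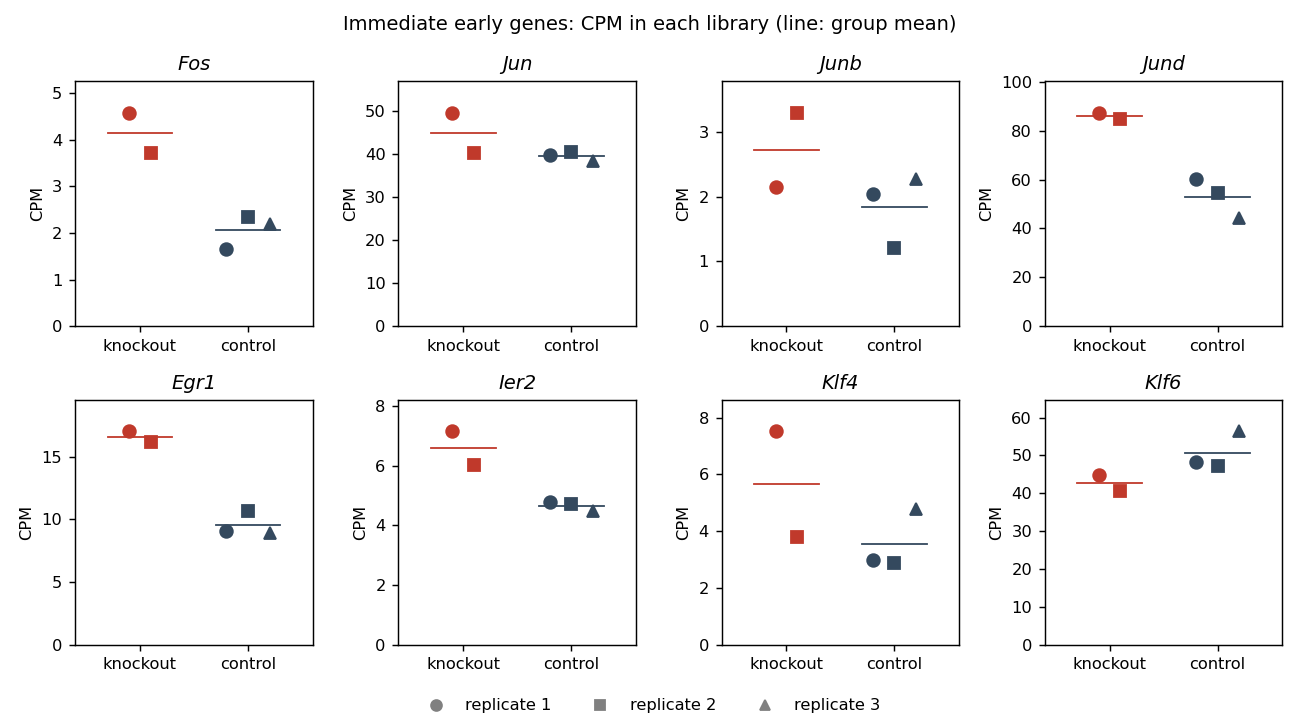
CPM of the 8 measured immediate early genes in each library, with knockouts on the left, controls on the right, a marker shape for each replicate number and a line at the group mean; each panel has its own axis from 0. Fos, Jund, Egr1 and Ier2 lie higher in both knockout libraries than in any control, Klf6 lies lower, and Jun, Junb and Klf4 overlap.

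Fos encodes the FOS subunit of AP-1, which needs a JUN partner to bind DNA (chromosome 12, 85473890 to 85477273, GRCm38). Its raw counts were 64 and 52 in the knockouts, against 21, 31 and 29 in the controls. In CPM these were 4.58 and 3.73 in the knockouts, against 1.65, 2.35 and 2.20 in the controls. Both knockout libraries therefore lay above each control. The means were 4.16 ± 0.601 CPM in the knockouts (SD, n = 2) and 2.07 ± 0.372 CPM in the controls (SD, n = 3). The fitted log2 fold change was 1.0 (SE 0.29; adjusted p = 0.049 by edgeR). Fos was among the least abundant members, and only 6.8% of tested genes had a mean level as low or lower. At this depth the exact 95% Poisson interval, which covers counting error only, reached down to 2.79 CPM in knockout replicate 2 and up to 3.34 CPM in control replicate 2. The call stood close to the threshold: Fos passed in 5 of its 16 alternatives, with edgeR adjusted p or its equivalent between 0.038 and 0.24. Its log2 fold change stayed between 0.85 and 1.14 over these alternatives, and was 1.04 with the length and GC trends removed (edgeR adjusted p = 0.0545). With all libraries, Fos was not called by DESeq2 (adjusted p = 0.073) or limma-voom (adjusted p = 0.05003). Nor did it pass with the replicate block (edgeR adjusted p = 0.12) or without the filter (edgeR adjusted p = 0.054). It missed the threshold without knockout replicate 1 (edgeR adjusted p = 0.24) and without any 1 of control replicates 1 (0.090), 2 (0.12) and 3 (0.12).

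Jund encodes the JUN-family subunit that is known for steady rather than pulsed expression (chromosome 8, 70698949 to 70700616). It was the most abundant AP-1 gene among the members, with 87.3 and 85.0 CPM in the knockouts, against 60.1, 54.5 and 44.2 CPM in the controls. The knockout libraries stood close together and above every control. The means were 86.2 ± 1.63 CPM in the knockouts (SD, n = 2) and 52.9 ± 8.09 CPM in the controls (SD, n = 3). The fitted log2 fold change was 0.70 (SE 0.12; adjusted p = 0.016 by edgeR). Jund had the most GC-rich transcript of the 8 members (67.1%), and with the length and GC trends removed its log2 fold change was 0.29 (edgeR adjusted p = 0.057). Jund missed the threshold without knockout replicate 1 (0.69, edgeR adjusted p = 0.063) and without control replicate 2 (0.74, edgeR adjusted p = 0.067). An annotated gene, Gm11175, overlaps Jund. The strand setting is unstated, and so is how the counting treated reads in the overlap.

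Jun encodes the founding JUN subunit, a target of the kinase JNK (chromosome 4, 95049034 to 95052222). It had 49.6 and 40.2 CPM in the knockouts, against 39.9, 40.5 and 38.4 CPM in the controls. Knockout replicate 1 was above all controls, while knockout replicate 2 lay among them. The log2 fold change was 0.18 (SE 0.11, edgeR adjusted p = 0.27), and it was -0.031 with the length and GC trends removed. An annotated antisense gene, Junos, overlaps Jun.

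Junb encodes a JUN subunit often set against JUN in control of proliferation (chromosome 8, 84974484 to 84978718). It was the least abundant member, with raw counts of 30 and 46 in the knockouts, against 26, 16 and 30 in the controls. Knockout replicate 1 equalled the highest control in raw counts, and knockout replicate 2 was above all of them. The log2 fold change was 0.56 (SE 0.38, edgeR adjusted p = 0.32), and it was 0.22 without knockout replicate 2 and 0.84 without knockout replicate 1. Junb overlaps the annotated gene Prdx2, and how the counting treated reads in the overlap is unstated.

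The 4 AP-1 genes measured among the members were Fos, Jun, Junb and Jund, and Fosl2, measured outside the members, is not included here. Per kilobase of longest transcript, these 4 summed to 71.3 and 67.2 CPM per kb in the knockouts, against 50.5, 47.2 and 40.8 CPM per kb in the controls. Jund made up 73.5% and 75.9% of that sum in the knockouts, against 71.4%, 69.3% and 64.9% in the controls. Jun made up 21.8% and 18.8% in the knockouts, against 24.8%, 26.9% and 29.5% in the controls. The groups did not overlap for either share. The ratio of Jund to Jun on this scale was 3.37 and 4.04 in the knockouts, against 2.88, 2.57 and 2.20 in the controls (exact two-sided permutation p = 0.1, the smallest that 2 against 3 libraries can give). Fos stood at 3.15% and 2.71% of the 3 JUN-family genes together in the knockouts, against 1.57%, 2.42% and 2.62% in the controls. Jund and Jun also differ in GC content (67.1% and 55.5%), and the part of this in the shift of their ratio was not tested.

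**Figure D2:**
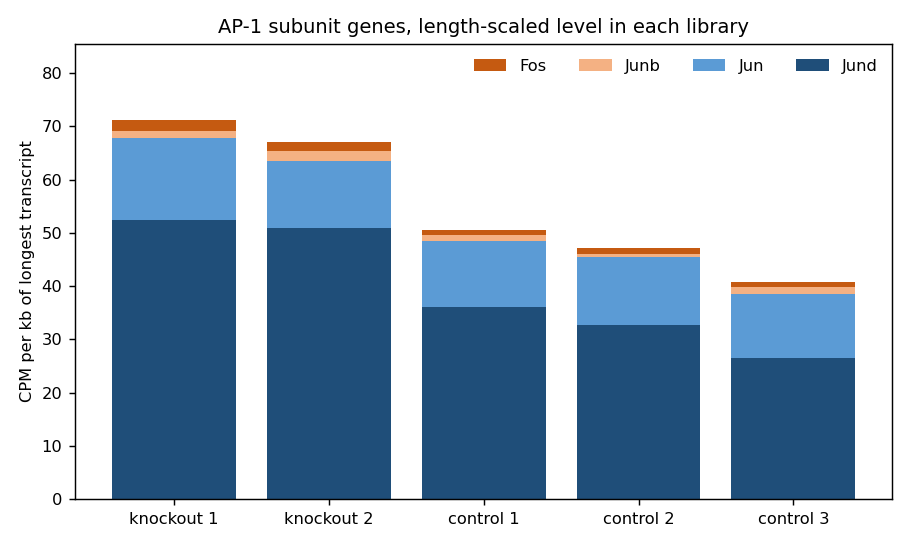
Level of the 4 AP-1 subunit genes among the members (Fosl2 is not included) in CPM per kb of longest transcript, stacked for each library with the 2 knockouts on the left. The whole stack is 71.3 and 67.2 in the knockouts and between 40.8 and 50.5 in the controls, and Jund is the largest layer in every library.

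Egr1 encodes a zinc finger factor induced by ERK signalling through serum response factor (chromosome 18, 34859823 to 34864984). Its raw counts were 238 and 226 in the knockouts, against 116, 141 and 118 in the controls. It had 17.0 and 16.2 CPM in the knockouts, against 9.09, 10.7 and 8.96 CPM in the controls. The groups lay apart, and the exact 95% Poisson intervals of the 2 knockout libraries (14.2 CPM at the lowest) lay above those of the controls (12.6 CPM at the highest). The means were 16.6 ± 0.580 CPM in the knockouts (SD, n = 2) and 9.58 ± 0.971 CPM in the controls (SD, n = 3). The fitted log2 fold change was 0.79 (SE 0.15; adjusted p = 0.019 by edgeR). It was 0.43 with the length and GC trends removed (edgeR adjusted p = 0.11). Egr1 missed the threshold without knockout replicate 1 (0.76, edgeR adjusted p = 0.079), control replicate 2 (0.89, edgeR adjusted p = 0.063) or control replicate 3 (0.76, edgeR adjusted p = 0.067).

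EGR1 activity is restrained by the corepressors NAB1 and NAB2, and Nab2 is itself a known EGR1 target. Nab2 had 9.88 and 4.88 CPM in the knockouts, against 2.98, 3.34 and 2.73 CPM in the controls, and rose 2.44-fold (log2 1.29, SE 0.32, edgeR adjusted p = 0.036). Both knockout libraries lay above the controls, and knockout replicate 1 was the higher of the pair. Nab1 had 13.2 and 12.6 CPM in the knockouts, against 8.15, 11.2 and 10.8 CPM in the controls, and did not pass (log2 0.37, SE 0.18, edgeR adjusted p = 0.18). Without knockout replicate 1 the log2 fold change of Nab2 was 0.69 (edgeR adjusted p = 0.25).

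Ier2 encodes a small nuclear protein induced by growth factors (chromosome 8, 84661331 to 84662852). It had 7.16 and 6.03 CPM in the knockouts, against 4.78, 4.71 and 4.48 CPM in the controls. The groups did not overlap and the controls were nearly equal, but Ier2 did not pass over all genes tested (log2 0.50, SE 0.20, edgeR adjusted p = 0.12). Over its 17 alternatives the adjusted p lay between 0.078 and 0.58.

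Klf4 encodes a Krüppel-like factor known from epithelial barrier formation and pluripotency (chromosome 4, 55527143 to 55532466). It had 7.51 and 3.80 CPM in the knockouts, against 2.98, 2.88 and 4.78 CPM in the controls. Knockout replicate 1 was the highest library, and knockout replicate 2 lay below control replicate 3. The log2 fold change was 0.67 (SE 0.36, edgeR adjusted p = 0.22). It was 1.08 without knockout replicate 2 (edgeR adjusted p = 0.045) and 0.10 without knockout replicate 1.

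Klf6 encodes a widely expressed Krüppel-like factor (chromosome 13, 5861482 to 5870394). It had 44.9 and 40.6 CPM in the knockouts, against 48.3, 47.2 and 56.3 CPM in the controls. Both knockout libraries lay below the controls, the opposite side from the other members whose groups lay apart. The log2 fold change was -0.24 (SE 0.11, edgeR adjusted p = 0.15). Klf6 had the lowest GC content of the 8 members (42.4%), and its log2 fold change was -0.030 with the length and GC trends removed.

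**Figure D3:**
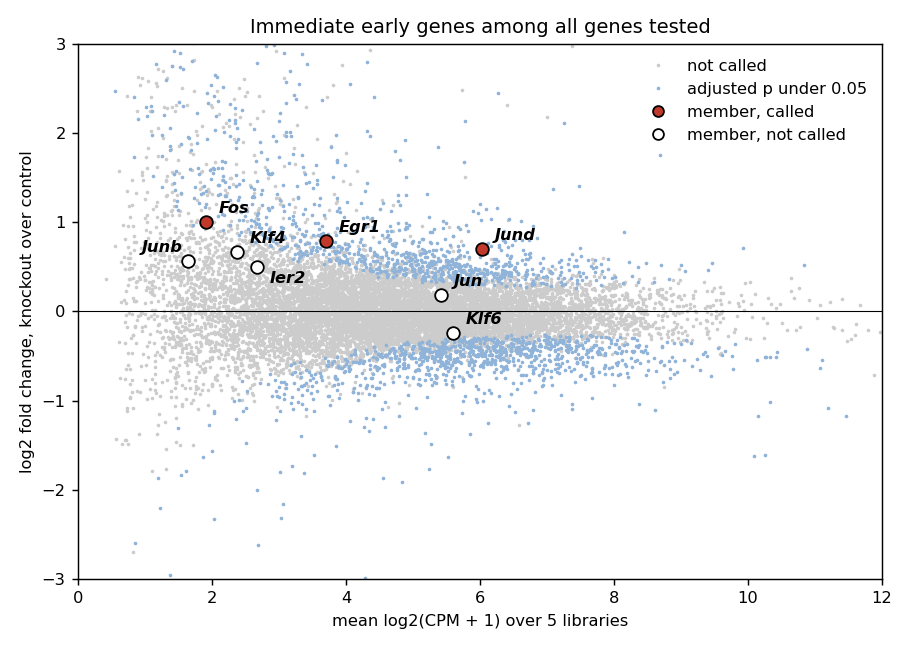
Log2 fold change (knockout over control) against mean log2(CPM + 1) over the 5 libraries for all genes tested, with the 8 immediate early genes named and filled where called; 43 genes fall outside the axes. Fos, Egr1 and Jund lie between 0.70 and 1.0 at very different levels, and Klf6 is the only member below 0.

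On the level scale in CPM per kb, the order of the members was led by Jund in both groups (51.7 ± 0.977 in the knockouts, 31.7 ± 4.85 in the controls; SD, n = 2 and n = 3). Jun (14.1 ± 2.07 in the knockouts, 12.4 ± 0.342 in the controls) and Klf6 (10.1 ± 0.715 in the knockouts, 12.0 ± 1.18 in the controls) followed, and their libraries overlapped in the controls but not in the knockouts. Ier2 (4.33 ± 0.525 in the knockouts, 3.06 ± 0.104 in the controls) stood above Egr1 (3.71 ± 0.129 in the knockouts, 2.14 ± 0.216 in the controls) in every library. Fos, Klf4 and Junb were lowest. Their means were 1.97, 1.87 and 1.51 CPM per kb in the knockouts and 0.98, 1.17 and 1.02 CPM per kb in the controls, and their order did not hold beyond the spread between libraries.

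Members also differed in which knockout library was the higher. Fos, Jun, Egr1, Ier2, Jund, Klf4 and Klf6 had the higher CPM in knockout replicate 1, by a ratio that was largest for Klf4, and Junb in knockout replicate 2. Between the profiles of 2 members, centred on the log2(CPM + 1) scale over the 5 libraries, the root mean square difference was smallest for Fos and Egr1 (0.11) and largest for Jund and Klf6 (0.51). The added 1 shrinks differences at low levels, as for Fos (1.65 to 4.58 CPM), so the order of the pairs depends on this scale. The fitted log2 fold changes were 1.0 for Fos and 0.79 for Egr1. The genes outside the class closest to the mean profile of the 8 members were Acox3 (0.0169), Brpf3 (0.0211), Epn2 (0.0249), Kcnh1 (0.0299) and Pard3b (0.0314), where the median of the 10450 genes compared was 0.26. The closest to Fos was Slco3a1 (0.0505), to Egr1 Camkk1 (0.0471) and to Jun B4galt1 (0.0180). The medians of all genes compared were 0.42 for Fos, 0.40 for Egr1 and 0.20 for Jun, so these distances are not on a common footing. These likenesses rest on 5 libraries and describe only those.

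**Figure D4:**
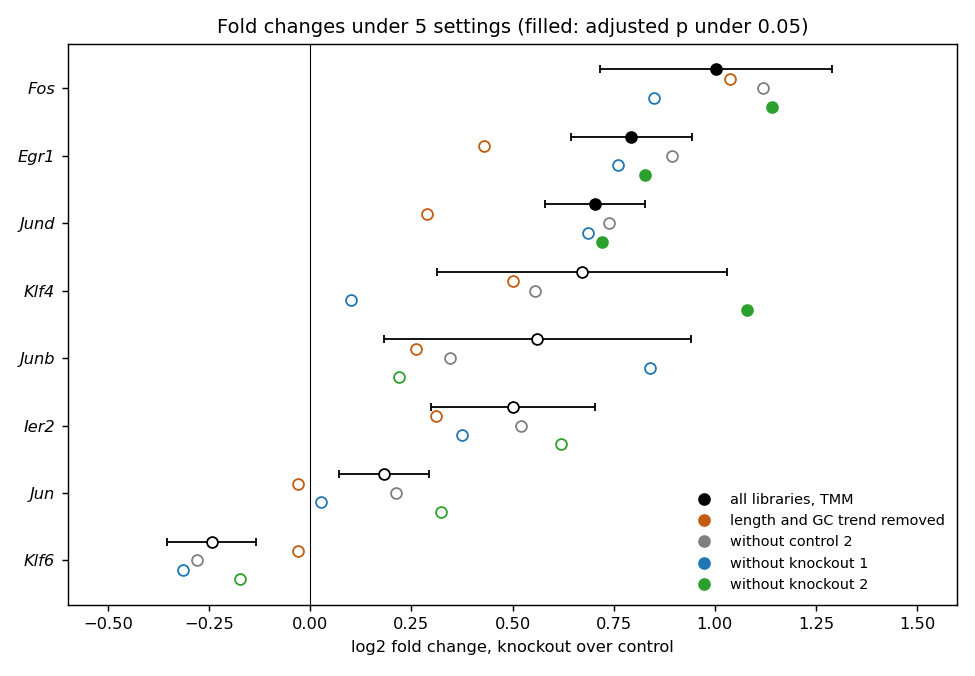
Log2 fold change (knockout over control) of each measured member with all libraries (black, with its SE) and under 4 other settings, filled where the edgeR adjusted p was under 0.05. Fos stays between 0.85 and 1.14, Egr1 (0.43) and Jund (0.29) are lower once the length and GC trends are removed, and Klf4 runs from 0.10 without knockout replicate 1 to 1.08 without knockout replicate 2.

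Among other immediate early genes, the shares called lay near those over all tested genes. Of 40 such genes listed, 26 had a row and were tested. Of these, 2 rose (7.69%, against 7.98% of all tested genes) and 3 fell (11.5%, against 8.51%), with a median log2 fold change of 0.14. Gadd45b, a stress-induced regulator of DNA demethylation and MAP kinase signalling, fell 3.48-fold to 2.86 and 3.73 CPM in the knockouts, against 10.4, 14.1 and 9.94 CPM in the controls (log2 -1.80, SE 0.24, edgeR adjusted p = 0.0097). Gadd45g, a relative known for growth arrest, fell 1.53-fold (log2 -0.62, SE 0.15), and Plk3, a stress-responsive Polo-like kinase, fell 1.94-fold (log2 -0.96, SE 0.19). Trib1, a pseudokinase that steers proteins to degradation, rose 1.42-fold to 173.7 and 188.9 CPM in the knockouts, against 147.8, 116.6 and 119.7 CPM in the controls (log2 0.50, SE 0.11). Ier5l, named because it is the remaining call, rose 2.17-fold (log2 1.12, SE 0.29, edgeR adjusted p = 0.041). Dusp1, Zfp36 and Nr4a1, which are commonly induced alongside Fos, did not pass the test, with log2 fold changes of -0.19 (Dusp1), 0.12 (Zfp36) and 0.0054 (Nr4a1). Myc (log2 0.63, edgeR adjusted p = 0.073) and Cyr61 (log2 0.61, edgeR adjusted p = 0.13) of the same list did not pass either. Their knockout libraries lay above every control. At an unadjusted p under 0.05, edgeR had 5 genes of the list higher and 4 lower. With the length and GC trends removed, 3 were called lower and 0 higher.

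The genes called among those that end the immediate early response were higher. Of 22 feedback genes listed, 17 had a row and 16 were tested. Of these, 4 rose (25.0%, against 7.98% of all tested genes) and 0 fell, with a median log2 fold change of 0.20. Zfp36l1, which binds AU-rich messenger RNAs such as those of immediate early genes and promotes their decay, rose 2.84-fold to 64.6 and 45.2 CPM in the knockouts, against 14.3, 16.1 and 27.6 CPM in the controls (log2 1.50, SE 0.27, edgeR adjusted p = 0.016). Spry4 (1.58-fold) and Spry2 (1.26-fold), antagonists of FGF receptor signalling to ERK, rose as well, beside Nab2. Spry2 and Zfp36l1 were still called with the length and GC trends removed. At an unadjusted p under 0.05, 5 were higher and 0 lower by edgeR, and 4 (DESeq2) and 2 (limma-voom) were called higher and 0 lower.

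Upstream, 14 regulators of serum response factor and CREB were tested (median log2 fold change 0.23). Of these, 3 rose (21.4%, against 7.98% of all tested genes) and 0 fell. They were the CREB coactivators Crtc1 (1.53-fold, log2 0.61, SE 0.13) and Crtc2 (1.51-fold, log2 0.59, SE 0.14) and the actin-sensing serum response factor coactivator Mkl1 (1.40-fold, log2 0.48, SE 0.13). Of 12 tested actin cytoskeleton genes known as serum response factor targets, 3 rose (25.0%, against 7.98% of all tested genes) and 0 fell. The list's median was 0.40. Flna, a crosslinker of actin filaments, rose 1.37-fold, the focal adhesion gene Zyx 1.67-fold and the calponin Cnn2 1.55-fold. Zyx had 84.2 and 53.1 CPM in the knockouts, against 43.7, 41.3 and 38.6 CPM in the controls, so knockout replicate 1 was the highest library. Mesenchyme markers also summed highest there, at 2362 and 740.5 CPM in the knockouts, against 592.1, 584.2 and 869.6 CPM in the controls, and their part in the actin genes' values was not tested. The actin list had 7 genes called higher without knockout replicate 2, 1 without control replicate 1, and 0 without knockout replicate 1 or control replicate 3. With the length and GC trends removed, 1 gene of each of these lists was called higher, and with the GC trend alone removed, 0 were. At an unadjusted p under 0.05, 6 genes of each list were higher and 0 lower by edgeR, and DESeq2 and limma-voom also called 0 lower. Of 24 tested RAS, RAF and MAP kinase genes, 1 rose (4.17%, against 7.98% of all tested genes) and 3 fell (12.5%, against 8.51%), shares near those over all genes, with a median log2 fold change of 0.02. Mapkapk2, a kinase downstream of p38, rose 1.29-fold, while Mapk10, the neural JNK gene, fell 1.58-fold, Rps6ka3, an ERK-activated kinase, 1.22-fold and Nras 1.23-fold. With the length and GC trends removed, 1 gene of this list was called higher and 2 lower, and neither Rps6ka3 (log2 fold change -0.11, edgeR adjusted p = 0.32) nor Nras (log2 fold change -0.11, edgeR adjusted p = 0.35) passed. With the GC trend alone removed, 1 was called lower, and the log2 fold change was -0.011 for Rps6ka3 and -0.093 for Nras. The list had 1 gene lower without knockout replicate 2 or control replicate 1 and 0 without control replicate 3.

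The 14 tested bZIP genes can pair with FOS or JUN or belong to the same superfamily. Of these, 2 fell (14.3%, against 8.51% of all tested genes) and 0 rose (median log2 fold change 0.04). With edgeR 1 was higher at an unadjusted p under 0.05, and 1 was called higher by DESeq2 and 0 by limma-voom. The 2 that fell were Maf, a lens fibre regulator, and Nfe2l2, the antioxidant regulator NRF2 (1.28-fold lower). Maf had 771.6 and 1030 CPM in the knockouts, against 1277, 1267 and 1402 CPM in the controls (1.46-fold lower, log2 -0.55, SE 0.13). Fosl2, the other measured FOS-family gene, did not pass (log2 0.37, SE 0.28, edgeR adjusted p = 0.36). Of 15 tested KLF and SP genes other than the members, 1 rose (6.67%, against 7.98% of all tested genes). In the same list 1 fell (6.67%, against 8.51%), so both shares were near those over all genes (median 0.07). Klf12, a repressor, rose 1.57-fold and Klf9, a target of nuclear receptors, fell 2.17-fold.

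All genes called by edgeR in the heat shock and ATF4 stress lists were lower. For comparison with both lists, 8.51% of all tested genes were called lower and 7.98% higher. Of 10 tested heat shock genes, 5 fell and 0 rose (median log2 fold change -0.45). These were Hsp90aa1 (1.50-fold), the mitochondrial chaperonin Hspd1 (1.66-fold), the HSP40 cochaperones Dnaja1 (1.60-fold) and Dnajb1 (1.62-fold) and, named to complete the count, Hsph1 (log2 -0.31). Summed over the 10 genes, the level was 608.2 and 737.6 CPM in the knockouts, against 931.1, 1012 and 1045 CPM in the controls. Of 10 tested genes linked to ATF4, the stress factor that also drives Atf3, 2 fell and 0 rose (median -0.15): Asns, asparagine synthetase, 1.82-fold and Psat1, an enzyme of serine synthesis, 1.36-fold. Neither DESeq2 nor limma-voom called a gene of either list higher, and at an unadjusted p under 0.05 edgeR had 0 heat shock genes and 1 ATF4-linked gene higher. With the length and GC trends removed, 5 heat shock genes and 1 ATF4-linked gene were called lower. Without control replicate 3, 0 genes of either list were called lower. In each of the 9 related lists 0 genes passed without control replicate 2, where 38 of all genes were called and 3157 had an unadjusted p under 0.05. Without knockout replicate 1, 4 passed in all, 2 other immediate early genes (1 in each direction), 1 heat shock gene and 1 ATF4-linked gene.

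**Figure D5:**
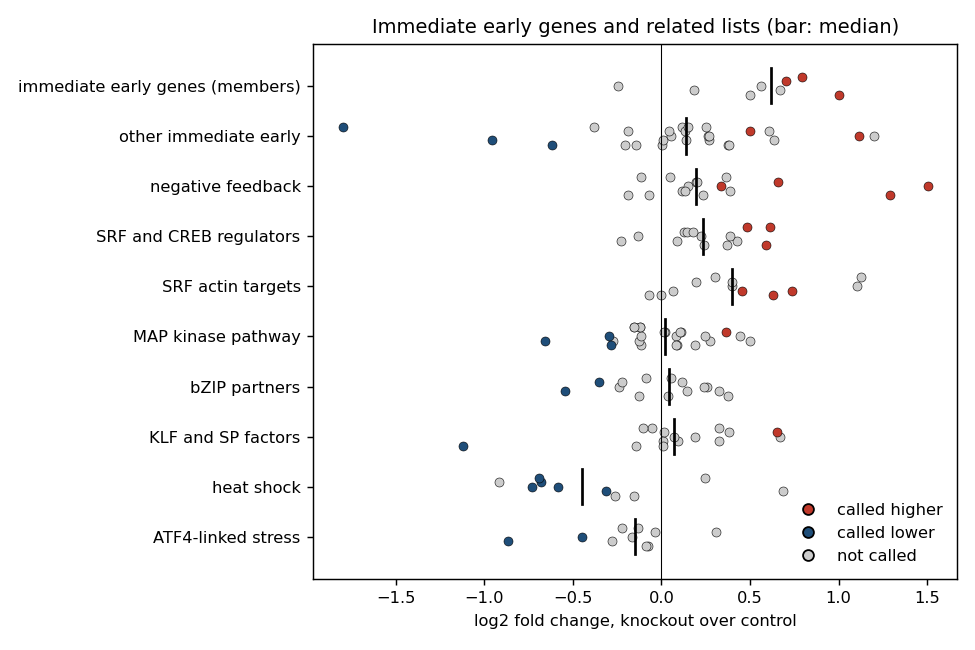
Log2 fold change (knockout over control) of every tested gene of the immediate early class and of 9 related lists, coloured where the edgeR adjusted p was under 0.05, with a bar at the median. The medians run from 0.62 for the immediate early genes to -0.45 for the heat shock genes.

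Markers of other cell types differed between the libraries in which the members differed, and in bulk RNA fewer cells of a type and less RNA per cell cannot be told apart. Over all tested genes, 7.98% were called higher and 8.51% lower. Of 12 mesenchyme markers, 11 had a row and 4 were called higher, with the sums given beside the actin genes. Of 14 retina markers, 13 had a row, 10 were called higher, and they summed to 128.4 and 252.7 CPM in the knockouts, against 80.3, 82.4 and 77.2 CPM in the controls. Macrophage markers (8 of 10 with a row, 0 called) summed to 47.0 and 49.0 CPM in the knockouts, against 32.1, 23.1 and 46.1 CPM in the controls. Endothelial and pericyte markers (12 of 12 with a row, 2 called higher) summed to 359.0 and 362.7 CPM in the knockouts, against 328.0, 341.4 and 409.5 CPM in the controls. Red blood cell markers (8 of 10 with a row, 0 called; the adult globin genes Hba-a1, Hba-a2 and Hbb-bt at 0 in all libraries) summed to 75.1 and 86.4 CPM in the knockouts and to between 69.5 and 103.4 CPM in the controls. Surface ectoderm markers (4 of 8 with a row, 0 called) summed to 23.4 and 7.60 CPM in the knockouts and to between 4.08 and 14.2 CPM in the controls. Mesenchyme and surface ectoderm markers summed highest in knockout replicate 1, and retina and macrophage markers in knockout replicate 2. Fos, Jun, Jund, Egr1, Ier2 and Klf4 had their highest CPM in knockout replicate 1, Junb in knockout replicate 2 and Klf6 in control replicate 3. The part of these cells in the members' values was not tested.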

How the data were processed

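RNA of embryonic day 14 mouse lenses was measured in 2 knockout and 3 control libraries. The authors deposited raw counts per gene symbol. Per the submitters' processing notes, they used HTSeq 0.6.1, TopHat2 2.0.13, Cufflinks 2.2.1, DESeq2, Trim Galore 0.3.7 and the build mm10, with no role stated. The sources used here do not give the annotation, the strand setting or the rule for keeping symbols.

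Groups came from sample titles. The test was edgeR 4.0.16 (R 4.3.3): filterByExpr (minimum count 10; 12035 genes kept), TMM, glmQLFit and glmQLFTest without covariates, with Benjamini-Hochberg adjustment over all genes tested and a threshold of 0.05. An SE is the size of the log2 fold change over the square root of F. CPM uses TMM-scaled totals. Alternatives were DESeq2 1.42.0, limma-voom 3.58.1, other scalings and filters, each library left out, a replicate block and loess offsets for transcript length and GC content. The fits were tested on simulated data. Positions and lengths (longest transcript) are from GENCODE vM21 (GRCm38, the build mm10).

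Members, lists and tests were chosen with earlier results of these data known. Named genes are all members, up to 4 called genes per related list by smallest p, and the closest profiles among genes averaging 5 CPM or more. Nab1, Dusp1, Zfp36, Nr4a1, Myc, Cyr61, Fosl2, Ier5l and Hsph1 are outside this rule and were chosen after their values were seen. No pair of libraries of a group agreed within sampling noise (chi-square over its degrees of freedom 9.98 to 23.39). Nothing ties a pool to separate litters, so p-values reflect the spread between pools only.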

Additional observations from a re-analysis of the deposited data

How the results depend on the processing

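Over all genes, the numbers called higher and lower were 1511 and 637 with library totals only and 473 and 522 with the replicate block; with the length and GC trends removed 453 were higher (444 with a wider loess), and with the GC trend alone removed 455 and 526. Leaving out each library gave 21 to 1426 higher and 17 to 1291 lower genes. Of the members, 0 were called with the length and GC trends removed or the GC trend alone removed (3 with an unadjusted p under 0.05 in each), 1 with a wider loess, 1 with the replicate block and 0 to 4 when 1 library was left out; 0 were called lower in any setting, and with DESeq2 and limma-voom 2 were called higher. The fits for the GC trend alone, the length trend alone and a wider loess were added after seeing the data. The log2 fold change of Jun was -0.031 with the length and GC trends removed, -0.029 with a wider loess, and that of B4galt1 ran from -0.014 to 0.32 when 1 library was left out. With a minimum count of 50, Fos and Junb were not tested. The groups share replicate numbers 1 and 2, but nothing in the labels pairs them, and the deviations of same-numbered libraries correlated at -0.070 and 0.043 across genes. Raw counts of 16 to 64 for Fos and Junb limit their precision.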
